A study of Danaus plexippus with 36 samples.

Results

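Of the 15130 genes in the count table of monarch butterfly (Danaus plexippus) antennae, legs and proboscis, 111 (0.734%) were abundant in all 3 appendages. They were chosen by their mean level, in CPM (the count of a gene scaled to a library total of 1000000). A member had a mean of at least 500 CPM in each of the appendages, and its highest tissue mean was less than 4 times its lowest. The choice used the tissue means of these libraries, so the levels and the tissue differences below describe the set and were not used as tests of it.

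The study compared appendages of adult butterflies caught in the field: antennae, legs and proboscis of 6 gravid females (animals 1, 3, 11, 18, 25 and 27) and of 6 males (animals 2, 12, 13, 15, 16 and 20). Batch 2 held females 1, 3 and 11 with males 2, 12 and 16, and batch 1 held females 18, 25 and 27 with males 13, 15 and 20. There were 11 antennal, 12 leg and 12 proboscis libraries, since the antennae of male 2 were not analysed here. Each library is the messenger RNA of a whole appendage, so fewer cells of a type and less RNA per cell cannot be told apart.

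The antennae carry most of the olfactory sensilla of a butterfly, the legs carry contact taste sensilla with which females probe leaves before laying eggs, and the proboscis feeds and tastes. All are tubes of cuticle that also hold epidermis, trachea, nerve and blood cells, with muscle in different amounts. Genes that are abundant in every insect tissue are commonly those of protein synthesis, energy metabolism and the cytoskeleton. Which of these the 111 members belong to is not known here: their identifiers are not paired with names in the deposited table, and 0 of them matched the gene table at hand (RefSeq, assembly MEX_DaPlex). Members are therefore called by identifier, their roles are left out, and lists of pathway genes and of cell type markers could not be looked up, so the labelled tissues were not checked against markers.

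Sequencing depth differed between the tissues. Libraries held 0.622 to 24.7 M counts in antennae (median 5.50 M, where M is 1000000 counts), 11.7 to 117 M in legs (median 25.4 M) and 1.92 to 53.7 M in proboscis (median 13.2 M). In legs the depth moved with the batch, at 35.6 to 117 M counts in batch 2 and 11.7 to 15.2 M in batch 1. Every member had a count in every library, the lowest being 16 counts, so no value below rests on an absent count.

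The members together took up a large part of each library. Their summed share of the counts was 19.1% ± 2.59 in antennae (SD, n = 11), 15.3% ± 1.76 in legs (SD, n = 12) and 17.5% ± 1.53 in proboscis (SD, n = 12). Females had a share of 18.6% ± 2.24 in antennae (SD, n = 6) and males 19.6% ± 3.15 (SD, n = 5), a difference well inside the spread. In legs the share was 15.5% ± 1.89 in females and 15.2% ± 1.79 in males (SD, n = 6 each). In proboscis it was 17.03% ± 1.81 in females and 18.1% ± 1.09 in males (SD, n = 6 each). By batch, the legs stood apart without overlap: 14.9 to 18.6% in batch 2 and 13.1 to 14.7% in batch 1, with depth split in the same way, and its part in the difference was not tested.

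The level was spread over many members rather than held by a few. The mean of the 3 tissue means ran from 569 to 7767 CPM with a median of 1151 CPM, and the 10 highest members held 28.99% of the summed level. The members made up 55 of the 100 most abundant genes of antennae, 37 of those of legs and 45 of those of proboscis. Among the 10 most abundant genes there were 3 members in antennae, 0 in legs and 0 in proboscis, so the top of the leg and proboscis lists was filled by genes outside the set.

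**Figure D1:**
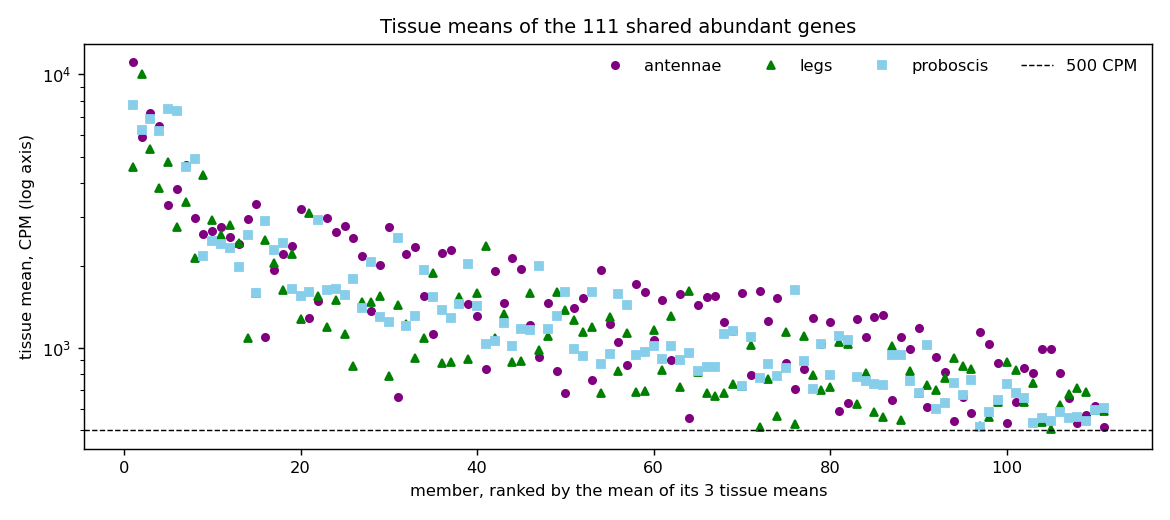
Mean CPM in antennae (circles), legs (triangles) and proboscis (squares) of the 111 members on a log axis, ranked by the mean of their tissue means; the dashed line is the 500 CPM of the choice. The mean of the tissue means runs from 569 to 7767 CPM, and antennae hold the highest symbol for 61 members.

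DPOGS215734 had the highest mean of all members. It ran from 8262 to 13888 CPM in antennae (median 10897), from 1512 to 6805 CPM in legs (median 4855) and from 2258 to 11499 CPM in proboscis (median 8246). The antennal libraries lay above every leg library and overlapped those of proboscis. The lowest leg and the lowest proboscis value both came from male 2.

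DPOGS214898, the member with the second highest mean, varied far more between animals. It ran from 454 to 20921 CPM in antennae (median 3282), from 3389 to 24396 CPM in legs (median 8312) and from 1170 to 16389 CPM in proboscis (median 4103). All 3 tissues overlapped. Its antennal values were 454 to 3282 CPM in batch 2 and 2753 to 20921 CPM in batch 1, while its leg values were 6523 to 24396 CPM in batch 2 and 3389 to 11066 CPM in batch 1.

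The edges of the set were close to genes left outside it. DPOGS202253 was the member with the lowest tissue mean, 504 CPM in legs, and DPOGS210046 just missed with 497 CPM in proboscis. DPOGS213324 had the widest tissue ratio among the members, 3.81, with means of 662 CPM in antennae, 1440 CPM in legs and 2522 CPM in proboscis. DPOGS202792 fell just outside at a ratio of 4.54, although its means of 2562, 10618 and 11622 CPM in the same order of tissues were higher than those of DPOGS215734 in legs and proboscis. Of 121 genes with at least 500 CPM in all 3 tissues, 10 were left out by the 4-fold bound.

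Within the bound, most members were much closer than 4-fold. The median ratio of highest to lowest tissue mean was 1.76, and 36 members were under 1.5-fold, 71 under 2-fold and 107 under 3-fold. DPOGS200490 had the smallest ratio, 1.04, with 615 ± 192 CPM in antennae (SD, n = 11), 593 ± 365 CPM in legs (SD, n = 12) and 593 ± 260 CPM in proboscis (SD, n = 12). Even so, its single libraries ran from 129 CPM in the legs of female 27 to 1335 CPM in the legs of female 3. Equal tissue means thus went with a wide spread between animals.

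A mean over the bound did not mean that each library was over it. Only 28 members were at 500 CPM or more in all 35 libraries, 77 were at 250 CPM or more and 100 at 100 CPM or more. Of the 3885 values of a member in a library, 531 (13.7%) were under 500 CPM. In 16 members, leaving out a single library ended the membership.

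The clearest of these was DPOGS209932, whose level came from a single animal. In female 27 it had 12506 CPM in antennae, 7895 CPM in legs and 7653 CPM in proboscis. In the other animals it ran from 25.7 to 91.2 CPM in antennae, from 17.7 to 62.1 CPM in legs and from 19.9 to 179 CPM in proboscis. Female 27 was thus 137-fold, 127-fold and 42.9-fold over the next highest animal in antennae, legs and proboscis, and the other 2 females of its batch were not raised. Without female 27 the means were 54.81 ± 22.01 CPM in antennae (SD, n = 10), 31.8 ± 14.3 CPM in legs (SD, n = 11) and 52.8 ± 44.7 CPM in proboscis (SD, n = 11), so in the remaining animals the gene was not abundant in any appendage.

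The other 3 members named for resting on 1 library were less extreme. DPOGS205240 had 8803 CPM in the antennae of female 27 and 39.4 to 1321 CPM in the other antennae, and its antennal mean without that library was 388 CPM. DPOGS211931 had 3716 CPM in the antennae of female 1 and 10.5 to 1415 CPM in the other antennae, and without that library its antennal mean was 384 CPM. DPOGS203687 had 3345 CPM in the proboscis of male 2 and 158 to 1001 CPM in the other proboscis libraries, and without that library its proboscis mean was 429 CPM. Leaving out only the antennae of female 1, at 2754 CPM, also ended its membership, with an antennal mean of 452 CPM.

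**Figure D2:**
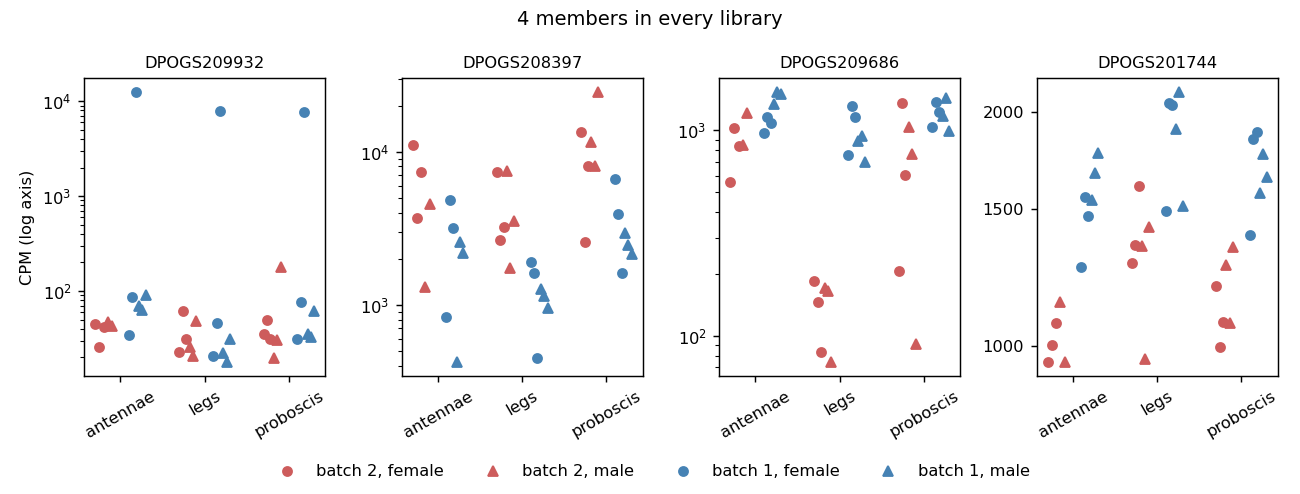
CPM on log axes of 4 members in every library, by tissue, with batch 2 (red) left of batch 1 (blue), females as circles and males as triangles. DPOGS209932 exceeds 179 CPM only in the 3 libraries of female 27, DPOGS209686 is at 185 CPM or lower in all batch 2 legs, and DPOGS201744 stays between 952 and 2121 CPM throughout.

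The opposite case was DPOGS201744, the member with the smallest spread between animals. Its SD was 0.20 on the log2 scale of TMM-scaled CPM, within groups of sex, tissue and batch. By CPM on total counts the gene ran from 952 to 1772 CPM in antennae, from 963 to 2121 CPM in legs and from 996 to 1887 CPM in proboscis. Its levels also differed between the batches. Its antennal libraries had 952 to 1140 CPM in batch 2 and 1264 to 1772 CPM in batch 1, without overlap, and its proboscis libraries had 996 to 1341 CPM in batch 2 and 1388 to 1887 CPM in batch 1, also without overlap, while its leg libraries overlapped at 963 to 1608 CPM in batch 2 and 1490 to 2121 CPM in batch 1. On TMM-scaled counts the batch difference was -0.77 ± 0.21 in legs (log2, SE, adjusted p = 0.0122, edgeR quasi-likelihood test) and did not pass in antennae (-0.28 ± 0.27, adjusted p = 0.889) or in proboscis (-0.51 ± 0.26, adjusted p = 0.957).

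Across all members the spread between animals of the same sex, tissue and batch was a median SD of 0.58 on the log2 scale of TMM-scaled CPM. It was 0.84 over all 11804 genes tested and 0.88 over the 363 other genes with at least 500 CPM in 1 tissue or more. In antennae the medians were 0.55 for members, 0.92 for all genes tested and 0.72 for the other abundant genes. In legs they were 0.53, 0.52 and 0.67 in the same order, and in proboscis 0.55, 0.78 and 0.79. In legs, the deepest libraries, the members varied about as much as the typical gene tested. The members have higher counts than most genes tested, and the part of that in these medians was not tested. An SD under 0.5 was found for 40 members and an SD over 1 for 12.

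Which appendage held the highest level depended on the scaling of the libraries. By CPM on total counts, the scale of the choice, 61 members were highest in antennae, 27 in legs and 23 in proboscis. After TMM scaling (trimmed mean of M values), which sets library sizes by the bulk of genes instead of the total, 35 were highest in antennae, 53 in legs and 23 in proboscis. The highest tissue was the same on both scales for 78 members. The TMM factors themselves differed by tissue, with a median of 1.39 in antennae (1.04 to 1.60), 0.818 in legs (0.523 to 1.07) and 0.932 in proboscis (0.689 to 1.19).

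**Figure D3:**
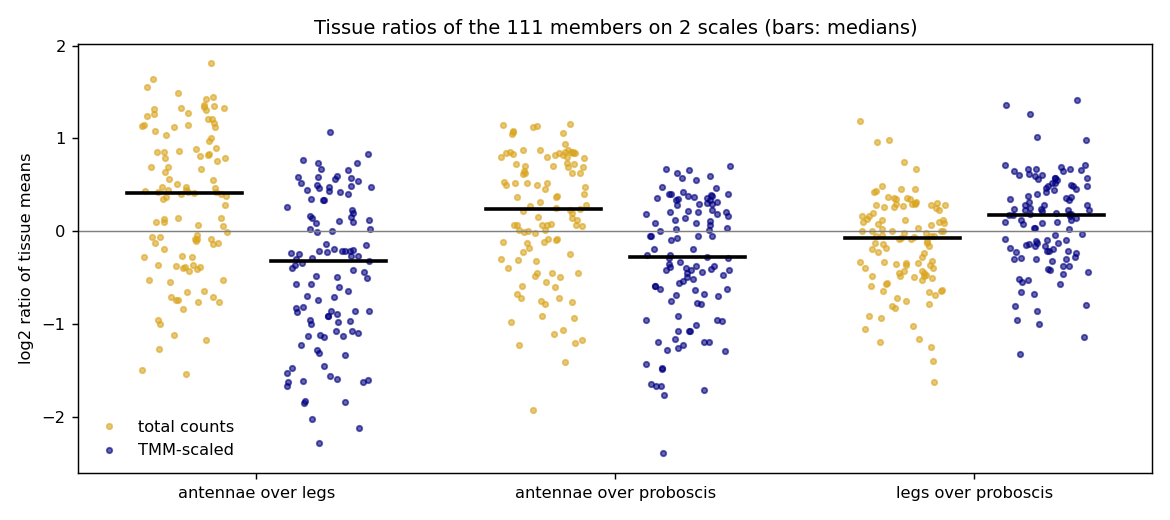
Log2 ratio of the tissue means of each of the 111 members, for antennae over legs, antennae over proboscis and legs over proboscis, from CPM on total counts (yellow) and on TMM-scaled counts (blue); black bars are medians. For antennae over legs the median is 0.41 on total counts and -0.33 on TMM-scaled counts, and all 3 pairs change sign between the scales.

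The fitted tissue differences turned with the scaling in the same way. On TMM-scaled counts 49 members passed an adjusted p of 0.05 between antennae and legs, 7 higher and 42 lower in antennae, where 51.5% of all genes tested passed, 25.2% higher and 26.3% lower. On total counts alone 56 passed, 45 higher and 11 lower in antennae, where 55.9% of all genes tested passed, 43.9% higher and 11.9% lower. The median over all genes tested was 0.00 on TMM-scaled counts and 0.76 on total counts (log2, antennae minus legs). Set against that median, the median of the members was -0.29 on TMM-scaled counts and -0.27 on total counts, so the scales placed the members alike relative to other genes.

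Between antennae and proboscis 32 members passed on TMM-scaled counts, 3 higher and 29 lower in antennae, with 26.1% of all genes tested passing, 11.4% higher and 14.7% lower. On total counts 52 passed, 40 higher and 12 lower, with 35.1% of all genes tested passing, 26.5% higher and 8.6% lower. The median of the members against that of all genes was -0.26 on TMM-scaled counts and -0.22 on total counts. Between legs and proboscis 19 passed on TMM-scaled counts, 14 higher and 5 lower in legs, with 24.9% of all genes tested passing, 12.6% higher and 12.3% lower. On total counts 18 passed, 4 higher and 14 lower, with 23.4% of all genes tested passing, 5.2% higher and 18.2% lower. The TMM-scaled count fell to 12 without male 13, to 11 without male 15 and to 12 without female 3. Of all genes tested 21.4%, 20% and 18.8% passed in those fits, against 24.9% with all animals. In all, 52 members passed in none of the 3 pairs and 5 passed in all of them; since the choice used these contrasts, nothing is read from the counts.

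The members with the widest fitted differences among those that passed show what the 4-fold bound still let in. DPOGS208226 had 1833 to 4505 CPM in antennae (median 2623), 443 to 1170 CPM in legs (median 782) and 817 to 1620 CPM in proboscis (median 1275). Its antennal libraries did not overlap those of either other tissue. DPOGS207191 had 1283 to 4787 CPM in antennae (median 1934) and 382 to 1570 CPM in legs (median 785), and overlapped between them. Among the members that passed, these 2 had the largest fitted differences in favour of antennae over legs, 1.08 ± 0.22 and 0.96 ± 0.23 (log2, SE). That of DPOGS207191 was 0.19 in batch 2 alone and 1.41 in batch 1 alone.

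In the other direction, DPOGS213778 was high in legs. It had 114 to 3431 CPM in antennae (median 537), 646 to 5136 CPM in legs (median 2321) and 223 to 1555 CPM in proboscis (median 1097), and its fitted differences were -2.65 ± 0.36 for antennae minus legs and 1.45 ± 0.33 for legs minus proboscis (log2, SE). DPOGS211931 was low in antennae by the same measure, -2.35 ± 0.58 against legs and -2.26 ± 0.57 against proboscis (log2, SE), with 10.5 to 3716 CPM in antennae, 124 to 3907 CPM in legs and 148 to 5800 CPM in proboscis. Its groups overlapped throughout, and its antennal median of 183 CPM was far below its antennal mean of 687 CPM.

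DPOGS213324, the member with the widest ratio, was low in antennae against proboscis, at -2.34 ± 0.39 (log2, SE). It had 154 to 2204 CPM in antennae (median 418) and 661 to 6103 CPM in proboscis (median 2460). DPOGS210833 and DPOGS214523 were, of the members that passed, the highest in antennae over proboscis, at 0.71 ± 0.23 and 0.71 ± 0.20 (log2, SE). Both leaned on male 12, without which the differences were 0.29 and 0.36.

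DPOGS203821 was higher in legs than in proboscis by 1.22 ± 0.22 (log2, SE), with 1609 to 5507 CPM in legs (median 2758) and 995 to 3309 CPM in proboscis (median 1371). DPOGS208397 and DPOGS201446 were lower in legs than in proboscis, at -1.10 ± 0.35 and -0.998 ± 0.288 (log2, SE). DPOGS201446 had 405 to 1855 CPM in legs (median 1034) and 827 to 3684 CPM in proboscis (median 2671), and the low proboscis value was that of male 2.

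**Figure D4:**
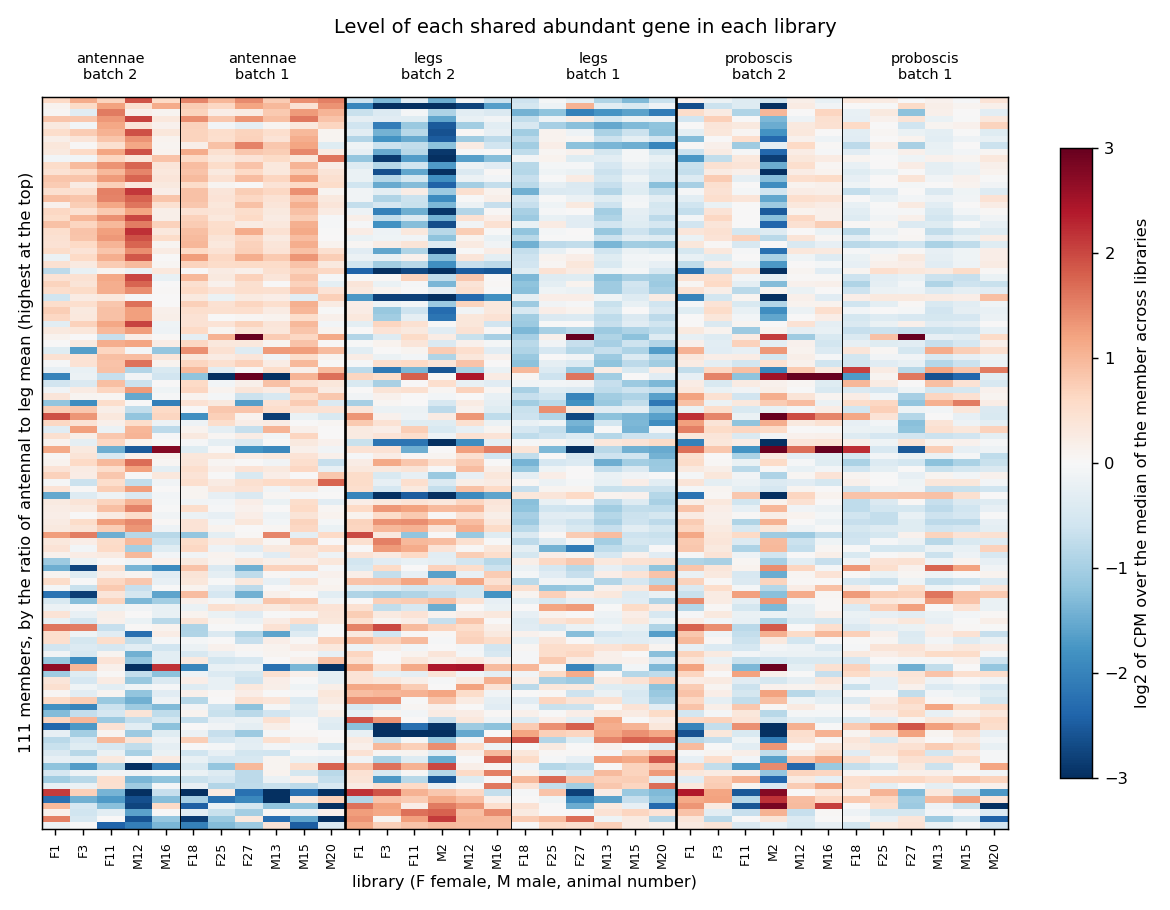
Log2 of the CPM of each of the 111 members (rows, ordered by the ratio of antennal to leg mean) over its own median across libraries, in 35 libraries (columns, F female, M male, with the animal number; batch 2 left of batch 1 within each tissue); colours stop at 3 log2 units either way. The antennae of male 12 form a red stripe, being the highest library for 41 members, and the legs of male 2 form a blue one, being the lowest for 34.

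Some libraries stood out across many members at once. The antennae of male 12 were the highest of all 35 libraries for 41 members and the lowest for 14. In those 41 members, picked after their values were seen, male 12 was at a median of 2.05 times the median of the other antennae (1.32 to 3.04). They summed to 13.3% of the counts in the antennae of male 12 and to 6.56% ± 1.33 in the other antennae (SD, n = 10), 3.88% ± 1.03 in legs (SD, n = 12) and 4.13% ± 0.686 in proboscis (SD, n = 12). By tissue mean 40 of the 41 were highest in antennae, and 37 were without that library.

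The legs of male 2 were at the other end, the lowest library for 34 members. Of these, 22 were among the 41 members that were highest in the antennae of male 12, which is 64.7% of the 34 and 53.7% of the 41. The 41 and the 34 are each out of the 111 members. No share over all genes tested is given for these counts, so they are not read as a trait of the members. Which genes the 22 are could not be looked up. The antennae of male 12 were shallow at 2.12 M counts, while the legs of male 2 held 50.7 M. The part of depth in these values was not tested. The proboscis of male 2 was low for many of the 41 as well, being the lowest proboscis library for 21 of them. Over the 41, male 2 was at a median of 0.614 times the median of the other proboscis libraries (0.127 to 2.62). In legs it was at a median of 0.561 times that of the others (0.0997 to 3.09). Of all 35 libraries, the proboscis of male 2 was the lowest for 7 members and the highest for 7.

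A high level seldom followed an animal through all its appendages in the way DPOGS209932 did in female 27. Over the 11 animals with all 3 tissues, the same animal was highest in all 3 for 8 members, 7.21% of the 111, and for 4.48% of all genes tested. The same animal was lowest in all 3 for 7 members, 6.31%, and for 3.36% of all genes tested.

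The choice averaged over the batches, so it can be repeated in each batch alone. In batch 2 alone 115 genes met it, and 79 of them (68.7%) also met it in batch 1. In batch 1 alone 117 genes met it, and 79 of them (67.5%) also met it in batch 2. A member of the set in one batch was thus a member in the other about 2 times in 3. The same tissue was highest in both batches for 79 of the 111 members by CPM on total counts, namely antennae for 48, legs for 14 and proboscis for 17.

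Genes chosen in one batch were then tested between tissues in the other, where the choice had used no values. The 117 genes of batch 1, tested in batch 2, passed between antennae and legs in 49 cases (41.9%), against 43.6% of all genes tested. Between antennae and proboscis 13 passed (11.1%), against 13.8% of all, and between legs and proboscis 9 passed (7.69%), against 12.3% of all. The 115 genes of batch 2, tested in batch 1, passed in 44 cases between antennae and legs (38.3%), against 38.4% of all. Between antennae and proboscis 23 passed (20% of the 115), against 19.3% of all, and between legs and proboscis 8 passed (6.96%), against 10.8% of all. Genes within 4-fold in one batch thus passed between antennae and legs in the other batch at close to the share of all genes. Between legs and proboscis they passed at a lower share both times. A pass also depends on the precision of a gene, so these shares do not measure how even the levels stayed. By tissue means, 90 of the 117 were within 4-fold in batch 2, and 111 of the 115 in batch 1. No share over all genes is given for these 2 counts.

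Sex was the study's other question, and the choice had averaged over it. No member differed between females and males at an adjusted p of 0.05 in antennae, legs or proboscis by the edgeR quasi-likelihood test, where 0%, 0.0339% and 0% of all genes tested passed, and DESeq2 called 0 members in each tissue. At an unadjusted p of 0.05, 2 members passed in antennae (1.8%, against 3.1% of all genes), 7 in legs (6.31%, against 6.21%) and 0 in proboscis (0%, against 1.1%). In no member were the libraries of the sexes without overlap in any tissue, against 0.22% of all genes in antennae, 0.271% in legs and 0.0508% in proboscis.

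The fitted sex differences were small for most members. They were under 0.5 in size (log2) for 100 members in antennae, 94 in legs and 105 in proboscis. The 95% interval of the difference lay within 1 log2 unit of 0, a 2-fold change, for 59 members in antennae (53.2%, against 17.4% of all genes tested), 68 in legs (61.3%, against 44.3%) and 58 in proboscis (52.3%, against 28.1%). For the other members a 2-fold sex difference was not excluded by the interval at this number of animals.

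The median female minus male difference on the log2 scale was -0.16 for antennae, -0.13 for legs and 0.07 for proboscis on TMM-scaled counts, and the sign for legs was positive on total counts (0.15), where the median of all genes tested was 0.27. Set against the median of all genes tested, the median of the members was -0.21 for antennae, -0.13 for legs and 0.11 for proboscis on TMM-scaled counts. On total counts it was -0.16 for antennae, -0.12 for legs and 0.10 for proboscis. Without the antennae of male 12 the median for antennae was 0.11, with 68 members positive, and 0.05 when set against all genes tested.

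**Figure D5:**
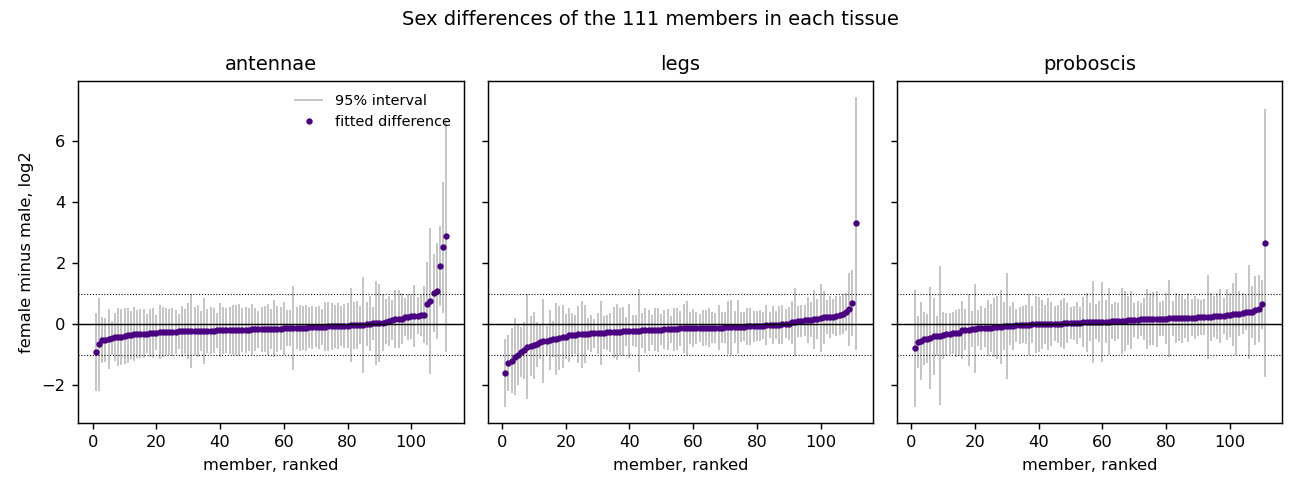
Fitted female minus male difference (log2, dots) with its 95% interval (grey lines) for each of the 111 members, ranked within antennae, legs and proboscis; dotted lines mark 2-fold. The median lies at -0.16 for antennae, -0.13 for legs and 0.07 for proboscis, and the highest dot in legs is DPOGS209932, whose interval runs from -0.83 to 7.45.

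The members with the smallest p in each direction show the spread behind these results. DPOGS213778 had 167 to 3431 CPM in female antennae (median 1027) and 114 to 537 CPM in male antennae (median 244), with overlap. Its difference was 1.89 ± 0.61 in antennae (log2, SE, adjusted p = 1, edgeR) and 0.65 ± 0.37 in proboscis (adjusted p = 1; 0.08 in batch 2 alone and 1.23 in batch 1 alone), while in legs it had 1265 to 3833 CPM in females (median 2564) and 646 to 5136 CPM in males (median 1879). DPOGS209686 was the lowest in p among those lower in female antennae, at -0.45 ± 0.26 (log2, SE, adjusted p = 1, edgeR).

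In legs DPOGS210435 had 628 to 1802 CPM in females (median 1070) and 426 to 4429 CPM in males (median 2749). Male 2, at 426 CPM, was below every female, and the other males ran up to 4429 CPM. The difference was -1.60 ± 0.52 (log2, SE, adjusted p = 0.599, edgeR), and -0.97 without male 16. In the other direction stood DPOGS209932 at 3.31 ± 1.92 (log2, SE, adjusted p = 0.916, edgeR), a difference that came from female 27 and was 0.04 without that animal. In proboscis DPOGS213324 had 661 to 3110 CPM in females (median 2215) and 1726 to 6103 CPM in males (median 2602), at -0.59 ± 0.39 (log2, SE, adjusted p = 1, edgeR).

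Sex differences were also compared between the tissues. No member passed the test of the sex by tissue interaction, and 0.00847% of all genes tested did (edgeR, adjusted p of 0.05). DESeq2 called 0 members, and 4 passed an unadjusted p of 0.05 (3.6%, against 2.69% of all genes). The smallest p was that of DPOGS208224 (adjusted p = 1, edgeR), with 911 ± 326 CPM in antennae, 1159 ± 460 CPM in legs and 1283 ± 332 CPM in proboscis of females (SD, n = 6 each). In males it had 717 ± 191 CPM in antennae (SD, n = 5), 2032 ± 1051 CPM in legs and 1345 ± 630 CPM in proboscis (SD, n = 6 each).

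The difference that members did show, on a contrast the choice had not used, was between the batches in legs. There 43 members passed an adjusted p of 0.05 (38.7%), 27 higher and 16 lower in batch 2, against 41.3% of all genes tested, 20.4% higher and 20.9% lower (edgeR quasi-likelihood test). The members were thus called at about the rate of other genes. The difference was 2-fold or more for 26 of the 43, 11 higher and 15 lower. No share over all genes tested is given for this bound, so the count is not read as a trait of the members. The median size of the batch difference was 0.65 over all 111 members and 0.84 over all genes tested (log2). By CPM on total counts, 29 members were without overlap between the batches, 19 higher and 10 lower in batch 2. That is 26.1%, against 16.8% of all genes tested. On total counts the median batch difference of all genes tested was 0.40 in legs, against 0.14 on TMM-scaled counts (log2, batch 2 minus batch 1). All leg libraries of batch 2 were deeper than those of batch 1, so batch and depth cannot be told apart in legs.

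The strongest differences that passed were falls. DPOGS209686 had 74.1, 82.9, 146, 165, 171 and 185 CPM in batch 2 legs and 701, 761, 884, 935, 1157 and 1310 CPM in batch 1 legs. The batches were far apart without overlap, at -3.02 ± 0.32 (log2, SE, adjusted p = 2.03e-05, edgeR). DPOGS214573 had 103, 125, 202, 409, 411 and 458 CPM in batch 2 legs and 1211, 1621, 1940, 2049, 2474 and 3331 CPM in batch 1 legs, at -3.11 ± 0.45 (log2, SE, adjusted p = 0.000274, edgeR).

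In the other appendages of the same animals the 2 genes did not pass, although several batch 2 libraries were low. In batch 2 antennae DPOGS209686 had 560 to 1213 CPM and in batch 1 antennae 973 to 1537 CPM, at -0.19 ± 0.26 (log2, SE, adjusted p = 0.943, edgeR). In proboscis it had 91.4, 207, 604, 767, 1036 and 1354 CPM in batch 2 and 994 to 1432 CPM in batch 1, so 4 of the 6 libraries of batch 2 lay below every one of batch 1. DPOGS214573 had 189, 293, 413, 768 and 1297 CPM in batch 2 antennae and 742 to 1081 CPM in batch 1 antennae, at -0.35 ± 0.43 (log2, SE, adjusted p = 0.925, edgeR). In proboscis it had 78.9, 243, 583, 949, 2019 and 2472 CPM in batch 2 and 1388 to 3542 CPM in batch 1, and again 4 of the 6 libraries of batch 2 lay below every one of batch 1. In both genes the 2 lowest proboscis values were those of male 2 and female 1. For both genes the proboscis difference did not pass, at -0.63 ± 0.59 (adjusted p = 0.957) for DPOGS209686 and -0.78 ± 0.71 (adjusted p = 0.957) for DPOGS214573 (log2, SE, edgeR).

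The largest rises that passed were smaller. DPOGS208397 had 1746 to 7437 CPM in batch 2 legs (median 3361) and 447 to 1908 CPM in batch 1 legs (median 1204), at 1.54 ± 0.42 (log2, SE, adjusted p = 0.0118, edgeR). DPOGS203687 had 627 to 2397 CPM in batch 2 legs (median 957) and 110 to 863 CPM in batch 1 legs (median 301), at 1.54 ± 0.51 (log2, SE, adjusted p = 0.0293, edgeR). Both genes overlapped between the batches. The call on DPOGS203687 was lost without any one of male 2, male 12, male 13, male 15, male 20 or female 25, at adjusted p-values of 0.0575 to 0.0756.

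DPOGS208397 had the same direction in the other appendages. It had 1308 to 11115 CPM in batch 2 antennae (median 4577) and 420 to 4824 CPM in batch 1 antennae (median 2374), at 1.37 ± 0.58 (log2, SE, adjusted p = 0.654, edgeR). In proboscis it had 2565 to 24528 CPM in batch 2 (median 9795) and 1621 to 6585 CPM in batch 1 (median 2710), at 1.70 ± 0.49 (log2, SE, adjusted p = 0.957, edgeR). Neither passed.

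No member passed between the batches in antennae or proboscis by the edgeR test, where 0.00847% and 0% of all genes tested did. At an unadjusted p of 0.05, 20 members passed in antennae (18%, against 7.1% of all genes) and 10 in proboscis (9.01%, against 3.99%), and DESeq2 called 2 members in antennae and 1 in proboscis, where it called 0.873% and 0.136% of all genes. Without overlap between the batches were 1 member in antennae (0.901%, against 2.74% of all genes) and 3 in proboscis (2.7%, against 0.644%). DPOGS203687 had the smallest p among those higher in batch 2 antennae, 862 CPM at the median in batch 2 and 140 CPM in batch 1, at 2.96 ± 0.75 (log2, SE, adjusted p = 0.422, edgeR), and at 1.76 without male 16. DPOGS214898 had the smallest p among those lower, at -1.999 ± 0.663 (log2, SE, adjusted p = 0.563, edgeR). These 2 were the members that DESeq2 called in antennae, with adjusted p-values of 0.0103 for DPOGS203687 and 0.0479 for DPOGS214898.

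The members called in legs had mostly the same sign of batch difference in proboscis. Of the 27 members higher in batch 2 legs, 23 had a positive batch difference in antennae (median 0.55) and 25 in proboscis (median 0.54, log2). Of the 16 members lower in batch 2 legs, 6 had a positive batch difference in antennae (median -0.05) and 1 in proboscis (median -0.52). Over all 111 members, 83 had a positive batch difference in antennae (median 0.40) and 71 in proboscis (median 0.18). The medians of all genes tested were 0.03 and 0.06. On total counts 63 members were positive in antennae (median 0.10, against -0.23 for all genes) and 64 in proboscis (median 0.10, against 0.05). Without the antennae of male 12, 75 were positive in antennae on TMM-scaled counts (median 0.20, against 0.04 for all genes). The positive signs of the 27 are therefore partly those of the whole set. Each animal gave all of its appendages, so these signs are not independent of each other.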

How the data were processed

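RNA was sequenced from antennae, legs and proboscis with a strand-specific Illumina messenger RNA kit from 100 ng of total RNA, per the labels' protocols. The authors deposited raw read counts per gene, and the submitters' processing notes name featureCounts 1.5.2 beside FastQC 0.11.5, limma and HISAT2 2.0.5. Not given in the sources used here are the build, the annotation and the counting's strand setting, so a member with a near-identical or overlapping gene is uncertain; 4 pairs of members have consecutive identifiers, and whether they are copies was not analysed here.

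CPM values are counts over the library total, and overlap between groups was read from these values. Tests used R 4.3.3 and edgeR 4.0.16 on all 11804 genes kept by filterByExpr (all 111 members among them), with TMM scaling, the quasi-likelihood test, Benjamini-Hochberg adjustment over all genes tested and a threshold of 0.05. A fit of all 35 libraries, with terms for the groups of sex and tissue and for batch, gave the tissue differences and the interaction. Sexes and batches were compared in separate fits per tissue with terms for both. SE values derive from the F statistic. Spread was the SD of log2(CPM + 0.5), with CPM in this case by TMM-scaled library sizes. The fits were tested on simulated data. DESeq2 1.42.0, other scalings, no filter, single batches, leaving out each animal and the animal as a block were alternatives. Figures were drawn with matplotlib 3.10.9.

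Libraries are paired because each animal gave all its appendages. Over genes, deviations of libraries of the same animal correlated at a median r of 0.158 (antennae with legs), 0.189 (antennae with proboscis) and 0.330 (legs with proboscis). No pair of libraries of the same sex and tissue agreed within sampling noise.

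The members, the alternatives and the rule for naming genes were chosen with earlier results of these data known. Named for each comparison were the 2 members with the largest fitted increase and the 2 with the largest decrease among those that passed, or the member with the smallest p in a direction where none passed. Also named were the 2 with the highest mean, those with the smallest and largest tissue ratio and spread, those next to each bound of the choice, and up to 4 that rest on 1 library.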

Additional observations from a re-analysis of the deposited data

Results flagged for a closer look

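Each of the 22 named members, and the summed share of all members, was checked in each of the 6 groups of sex and tissue for a library far from the rest of its group (Dixon's test at 95%, on log2 CPM for members and on percent for the share). Of 138 such checks 13 stood out, none of them of the summed share. Chance alone gives about 1 in 20 for members picked without regard to their values. Several of the named members were picked from these same values, for resting on 1 library or for their spread. The 13 are therefore not set against that rate.

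DPOGS209932 stood out in all 3 appendages of female 27, at 12506 CPM in antennae, 7895 CPM in legs and 7653 CPM in proboscis, where the other females had 25.7 to 86.1, 20.7 to 62.1 and 30.9 to 76.0 CPM. In the legs of female 27 DPOGS203687 was low, at 110 CPM against 447 to 959 CPM in the other females.

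The proboscis of male 2 was low for 4 members. DPOGS214573 had 78.9 CPM there and 949 to 2250 CPM in the other males, DPOGS209686 had 91.4 CPM and 767 to 1432 CPM, DPOGS201446 had 827 CPM and 2430 to 3684 CPM, and DPOGS215734 had 2258 CPM and 7577 to 9087 CPM.

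DPOGS203821 was low in the antennae of male 12, at 525 CPM against 1427 to 1771 CPM in the other males, and high in the proboscis of female 1, at 2918 CPM against 995 to 1440 CPM in the other females. DPOGS205240 was high in the legs of male 12, at 2261 CPM against 207 to 499 CPM in the other males. DPOGS210833 was low in the legs of female 18, at 256 CPM against 531 to 727 CPM in the other females. DPOGS210435 was high in the antennae of female 11, at 1496 CPM against 861 to 1039 CPM in the other females, in a library of 0.622 M counts.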

How the results depend on the processing

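The number of members followed the bound on the level: 243 genes met it at 250 CPM and 38 at 1000 CPM, while 105 to 115 did when each animal was left out in turn. By TMM-scaled CPM 125 genes met it, 94 of them members. Leaving out each animal gave 43 to 51 members called between antennae and legs, 26 to 38 between antennae and proboscis, 11 to 20 between legs and proboscis and 29 to 41 between the batches in legs. In the same order, 46.3 to 51.7%, 22.7 to 27%, 18.8 to 24.9% and 32.9 to 45.4% of all genes tested passed in those fits. The same fits gave 0 to 0 members for the sexes in each tissue, the interaction, and the batches in antennae and in proboscis. Between antennae and proboscis 52 members passed on total counts alone (35.1% of all genes), chosen as an alternative after seeing the data, and 13 in batch 2 alone (13.8%). Between legs and proboscis 12 passed with upper-quartile scaling (with 23.9% of all genes passing), 3 with only batch 2 (12.3%) and 8 with only batch 1 (10.8%). DESeq2 called 2 members between the batches in antennae (0.873% of all genes) and 1 in proboscis (0.136%). The cause of these changes was not tested, except that single batches hold fewer libraries. With the animal as a block, 55 members passed between antennae and legs (50.7% of all genes), 38 between antennae and proboscis (26.4%), 26 between legs and proboscis (28%) and 0 for the interaction, so the pairing moved no count by over 1.5 times. Of 542 values of single genes under alternatives, 515 kept direction and side of the threshold, 25 lost the call, 2 gained it and 0 reversed. Depth and the number of animals limit the precision: the 95% interval of the sex difference reached to a median of 0.774 (log2) either side for antennae, 0.650 for legs and 0.773 for proboscis.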
